A study of Arabidopsis thaliana with 16 samples.

Results

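The genes described here lie in the pericentromeric stretches of the 5 chromosomes of Arabidopsis thaliana, and their histone Khib was measured in 3 mutants and in the wild type. A gene was a member if its start fell between 13.5 and 16.5 Mb of chromosome 1, 2 and 5 Mb of chromosome 2, 12 and 15.5 Mb of chromosome 3, 2.5 and 5 Mb of chromosome 4, or 10.5 and 13.5 Mb of chromosome 5 (TAIR10). This gave 980 of 32548 genes, 3.01%, over 15 Mb. Membership rests on position alone, but the intervals were proposed with earlier results of these data known.

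Lysine 2-hydroxyisobutyrylation (Khib) was mapped by chromatin immunoprecipitation and sequencing with an anti-Khib antibody in whole 12-day-old seedlings, untreated and grown on plates at 22 °C. The tested genotypes were sant-null, a quadruple mutant that the series ties to SANT domain proteins, hda6, an EMS-induced line of the histone deacetylase gene HDA6, and hda9, a T-DNA insertion line of HDA9. The wild type Col-0 was the control, and each mutant genotype is represented by a single line. The 16 samples are 2 ChIP and 2 input libraries of every genotype. The deposited tables give 1 value per genotype, so no difference below has a replicate check or a test.

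Pericentromeric chromatin flanks the centromere and is dense in transposons and poor in genes. In Arabidopsis it is kept largely as heterochromatin by DNA methylation and by methylation of histone H3 on lysine 9, and HDA6 is known for its part in silencing transposons and rRNA genes. Khib is an acyl mark on histone lysines that is known mainly from transcribed genes. Genes that lie in such stretches therefore sit next to silent chromatin while some of them are active.

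The values are RPKM, reads per kilobase of gene and per M mapped reads, at depths of 12.0, 16.75, 38.77 and 18.6 M reads in sant-null, hda6, hda9 and Col-0. The median member held 111.5, 145.5, 396.5 and 162 reads in the same order of genotypes. Members at 0 numbered 34, 20, 13 and 19. Input values were not used, so a change of the mark and a change of the DNA recovered cannot be told apart, and neither can a mark in few cells and a weak mark in all of them. Over HDA9 (AT3G44680) the RPKM was 6.10 in hda9, against 2.33 in Col-0, and over HDA6 (AT5G63110) it was 12.0 in hda6, against 11.8 in Col-0. Neither value checks the mutations, since the mark over a gene need not follow its loss.

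The intervals held 65.3 genes per Mb, against 303 per Mb in the rest of the chromosomes. Members were short, with a median length of 965.5 bp against 1846 bp for other genes, and 29.3% of them against 15.8% were under 500 bp. Of the members 17.3% overlapped another listed gene, against 31.4% of other genes. By annotated type, 751 were protein-coding, 156 lncRNA, 26 tRNA, 22 miRNA, 14 other ncRNA, 9 snoRNA and 2 rRNA genes. No transposon or pseudogene was listed among them. The interval of chromosome 2 held 347 members, more than the 147, 195, 150 and 141 of chromosomes 1, 3, 4 and 5. A piece of the mitochondrial genome is inserted near its centromere, and 132 of the 347 were assigned to it by position alone. These 132 genes span chr2:3220739-3532663. The borders of the insertion were not checked by sequence, so nuclear genes beside it may be among them. A gene symbol was known for 153 members.

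A small number of genes held most of the reads that fell on members. The members took 10.9, 10.5 and 9.37% of all gene reads in sant-null, hda6 and hda9, against 15.4% in Col-0. A block of 7 overlapping rRNA and RNA genes at chr3:14195447-14200076 alone took 6.88, 6.95 and 4.56% in the mutants and 11.4% in Col-0. The mitochondrial insertion took 1.06, 1.03 and 0.567% in the mutants, against 0.841% in Col-0. The other 841 members together took 2.92, 2.49 and 4.25% in the mutants, against 3.13% in Col-0. Of these 841, AT1G40104, AT2G07981 and AT2G08986, described below, held 618175 of 1086751 reads in hda9 and 129356 of 350880 in Col-0. In sant-null they held 87264 of 228660 reads and in hda6 73604 of 270236. The 95% intervals of these shares (Clopper-Pearson) are narrower than 0.05 percentage points, but like every interval given here they cover counting error only, and ChIP reads are not independent molecules.

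The level of Khib over the members was close to that of other genes and more spread out. The median member had 8.15, 6.97 and 9.23 RPKM in sant-null, hda6 and hda9 and 6.54 RPKM in Col-0, where the median of the other genes was 7.85, 7.08 and 8.87 RPKM in the mutants and 5.61 RPKM in Col-0. In Col-0 the middle 50% of the members lay between 2.92 and 17.7 RPKM, against 3.09 and 10.5 RPKM for other genes. Each member was next set against the other genes of its chromosome that were at most 25% longer or 20% shorter. On the log2(RPKM + 1) scale the median difference in level between a member and its comparison genes was 0.09, 0.01 and 0.07 in sant-null, hda6 and hda9, and 0.25 in Col-0 (921 members with comparison genes). Members lay above their comparison genes in 482, 463 and 487 of 921 cases in the mutants and in 515 in Col-0.

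**Figure D1:**
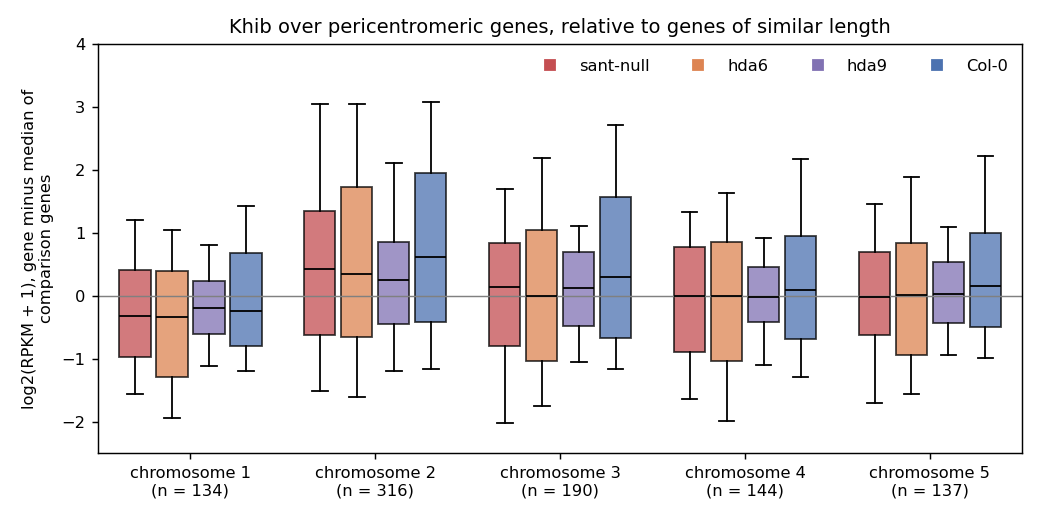
Khib level of pericentromeric genes relative to comparison genes of the same chromosome and similar length, by chromosome and genotype. Boxes show the quartiles with the median, and whiskers the 10th and 90th percentiles. The Col-0 median is below 0 on chromosome 1 (-0.23) and highest on chromosome 2 (0.62).

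The 5 intervals were unlike each other. In Col-0 the median difference in level was -0.23 on chromosome 1, 0.62 on chromosome 2, 0.30 on chromosome 3, 0.10 on chromosome 4 and 0.15 on chromosome 5. Without the mitochondrial insertion chromosome 2 stood at 0.26 in Col-0. The insertion's 108 genes with comparison genes stood at 1.59, 1.63 and 0.89 in sant-null, hda6 and hda9, and at 1.58 in Col-0. The 813 members outside it stood at 0.02, -0.06 and 0.04 in the mutants, and at 0.13 in Col-0. Outside the insertion the level of the genes thus differed little in the median from that of length-matched genes outside the intervals. Their quartiles in Col-0 ran from -0.67 to 1.23.

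Relative to Col-0, Khib over the members was lower than over comparable genes in each of the 3 mutants. The median log2 ratio of (RPKM + 1) was 0.14 over members of sant-null against 0.28 over all genes. In hda6 it was -0.01 against 0.20, and for hda9 it was 0.29 against 0.48. These ratios are all relative to the same Col-0 value, so the mutants are not independent of each other. Measured against its own comparison genes, the median member stood at -0.13 in sant-null and at -0.18 in both hda6 and hda9, and 539, 614 and 553 of 921 members lay below theirs. Outside the mitochondrial insertion the medians were -0.14, -0.23 and -0.12 in sant-null, hda6 and hda9 (813 members). By chromosome the median ran from -0.17 to -0.08 in sant-null and from -0.31 to -0.11 in hda6, below 0 on 5 of 5 chromosomes in both. In hda9 it ran from -0.33 to 0.01 and was below 0 on 4 of 5, the exception being chromosome 1.

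Counted gene by gene, the share of members that were lower stood above the background in each mutant and the share that were higher stood below it. In sant-null 147 of 922 members tested (15.9%) were at least 1.5-fold lower than in Col-0, where 6.01% of all genes tested were, and 184 (20.0%) were at least 1.5-fold higher, where 23.7% of all genes were. In hda6 102 members (11.1%) were lower, against a background of 3.05%, and 63 (6.83%) were higher, against 9.08%. In hda9 177 members (19.2%) were lower, against 9.08%, and 317 (34.4%) were higher, against 43.7%. Of the comparison genes of the members, 9.27, 4.47 and 11.2% were lower in sant-null, hda6 and hda9. Among members with at least 50 reads in both genotypes, a limit added after the values were seen, 26 of 681 (3.82%) were lower in hda6, where 0.282% of other genes with as many reads were. In sant-null 86 of 674 (12.8%) were lower, against 2.87%, and in hda9 164 of 721 (22.7%), against 9.49%. Outside the rRNA block 21 of 674 (3.12%) were lower in hda6, 80 of 667 (12.0%) in sant-null and 157 of 714 (22.0%) in hda9. At this limit 18.2, 6.90 and 26.6% of members were higher in sant-null, hda6 and hda9. Of other genes 22.3, 7.52 and 38.9% were.

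These counts depend on the scaling, because each mutant's median gene stood above that of Col-0. With every genotype scaled to the same median gene value, 49 members of sant-null were higher and 279 lower, 6 and 240 of hda6, and 81 and 353 of hda9. After quantile normalization 91 were higher and 158 lower in sant-null, 37 and 137 in hda6, and 148 and 195 in hda9. The median difference to the comparison genes, in which such a shift cancels, was below 0 under all 22 settings run in each mutant. In hda9 it shrank to -0.02 when the comparison genes were also matched on their Col-0 level, where sant-null stood at -0.09 and hda6 at -0.17. In hda9 log2 levels spanned 1.59 between the 10th and the 90th percentile of other genes, against 2.75 in Col-0. Over the 25% of other genes with the lowest Col-0 levels the median log2 ratio in hda9 was 1.00, and over the 25% with the highest it was -0.33.

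Pooled over the 5 chromosomes, the median ratios changed with depth into the interval. The zones were matched neither on length nor on Col-0 level. Median length was 1019 bp more than 1 Mb inside and 1928 bp over 5 Mb away. The deepest zone drew unevenly on the chromosomes and includes the rRNA block. Its steps of 0.5 Mb held 3 and 2 genes on chromosome 1, and 29, 2 and 28 on chromosome 3. With the mitochondrial insertion left out, the 129 members more than 1 Mb inside an edge had median log2 ratios of -0.08, -0.26 and 0.13 in sant-null, hda6 and hda9. The 242 members between 0.5 and 1 Mb inside had 0.15, -0.07 and 0.37 in the same order. Those within 0.5 Mb inside an edge (442 genes) had 0.15, 0.02 and 0.42, against 0.24, 0.09 and 0.46 for the 666 genes within 0.5 Mb outside. Genes over 5 Mb away had 0.29, 0.22 and 0.48. The share of genes at least 1.5-fold lower in hda6 was 20.2% more than 1 Mb inside, 9.09% between 0.5 and 1 Mb inside, 10.2% within 0.5 Mb inside, 7.66% within 0.5 Mb outside and 2.14% beyond 5 Mb.

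In the same pooled zones the median level went the other way with depth. More than 1 Mb inside, the median log2(RPKM + 1) was 3.52, 3.44 and 3.67 in sant-null, hda6 and hda9 and 3.42 in Col-0. Within 0.5 Mb inside an edge it was 3.07, 2.84 and 3.26 in the mutants and 2.72 in Col-0. Just outside, within 0.5 Mb, it was 3.07, 2.90 and 3.27 in the mutants and 2.74 in Col-0. Across the edge the median level thus differed by at most 0.0620 in each genotype. The median ratios were lower just inside than just outside, by 0.09, 0.07 and 0.03 in sant-null, hda6 and hda9.

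**Figure D2:**
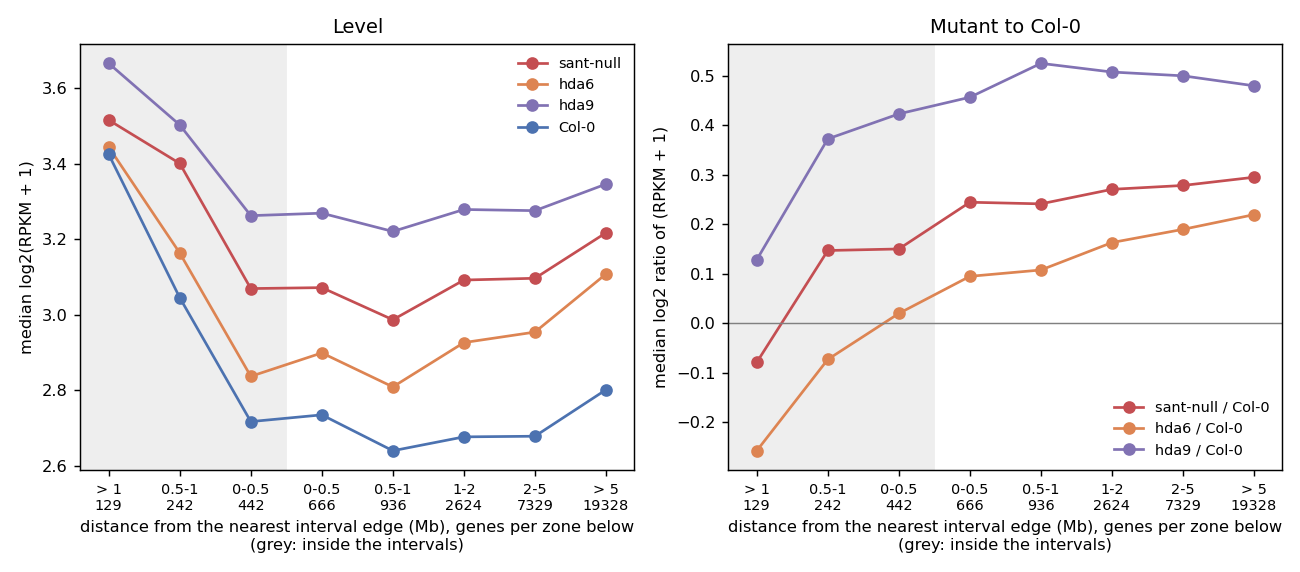
Median Khib level (left) and median log2 ratio of each mutant to Col-0 (right) of genes in zones of distance from the nearest interval edge, with the number of genes under each zone and the mitochondrial insertion left out. Inside (grey) the level is highest and the ratios are lowest in the zone more than 1 Mb from an edge.

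The rRNA block of chromosome 3 held the highest values of all members. It holds AT3G41768, the 18S rRNA gene, AT3G41979, the 5.8S rRNA gene, and 5 short genes annotated on the same stretch. AT3G41768 (chr3:14197677-14199484) had 6019, 5750 and 3983 RPKM in sant-null, hda6 and hda9, against 9075 RPKM in Col-0. AT3G41761, an ncRNA gene and the highest member, had 29688, 33150 and 19158 RPKM in the mutants, against 44845 RPKM in Col-0. Summed over the 7 genes, the fold relative to Col-0 was 0.651 in sant-null (95% interval 0.649 to 0.653), 0.653 in hda6 (0.651 to 0.655) and 0.435 in hda9 (0.434 to 0.436). All 7 genes were below 1 in each mutant, with single folds between 0.506 and 0.739 in hda6.

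rRNA genes are present in many near-identical copies elsewhere in the genome, and the sources used here do not say how reads with several matches were placed. The value of this block may therefore hold reads of other copies. The genes of the block also overlap, so a read can count more than once. The authors' island table gives a different picture of the same place: the island chr3:14188401-14209000 held 88094, 104554 and 133894 reads in sant-null, hda6 and hda9 and 121173 in Col-0, with folds of 1.01, 0.903 and 0.537 in the authors' deposited table. In the gene table the 7 genes alone held 539255, 754956 and 1164668 reads in the mutants and 1283835 in Col-0. The 2 kinds of table thus count different sets of reads, and not only there. The RPM of the islands correspond to totals of 25.7, 34.2 and 73.7 M reads in sant-null, hda6 and hda9 and 35.8 M in Col-0. The depths of the gene values were 12.0, 16.75, 38.77 and 18.6 M. At the block the lower value in sant-null is seen in the gene table but not in that island.

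Another 3 genes had high values and shared 1 profile, and were grouped after their values were seen. They are the protein-coding AT1G40104 of chromosome 1 and the neighbours AT2G07981 and AT2G08986 of chromosome 2, at chr2:3614986-3617716 and chr2:3618058-3626460, none with a symbol. Whether reads of repeated sequence elsewhere fall on these 3 genes was not tested. The placing of reads with several matches is not known here either. AT2G08986 had 636, 389 and 1372 RPKM in sant-null, hda6 and hda9, against 614 RPKM in Col-0. AT1G40104 had 306, 169 and 699 RPKM in the mutants, against 272 RPKM in Col-0, and AT2G07981 had 263, 169 and 610 RPKM, against 266 RPKM. Summed over the 3 genes the fold was 1.05 in sant-null (1.04 to 1.05), 0.632 in hda6 (0.626 to 0.638) and 2.29 in hda9 (2.28 to 2.31). In hda9 they were thus opposite in direction to the rRNA block and in hda6 the same. On chromosome 3 the island chr3:13588801-13600400, which overlaps no listed gene and is among the 5 widest islands inside, held 1257, 941 and 1206 RPM in the mutants and 1198 RPM in Col-0 in the authors' deposited table.

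The genes of the mitochondrial insertion formed a group of their own. Its 132 genes ranged from 0 to 970 RPKM in sant-null, to 956 in hda6, to 383 in hda9 and to 708 RPKM in Col-0, with medians of 20.2, 14.4 and 13.2 RPKM in the mutants and 15.4 RPKM in Col-0. Summed over all of them, the fold relative to Col-0 was 1.37 in sant-null (1.35 to 1.38), 1.32 in hda6 (1.31 to 1.33) and 0.737 in hda9 (0.731 to 0.743). Of 109 tested in sant-null, 47 (43.1%) were at least 1.5-fold higher and 14 (12.8%) lower, against 23.7 and 6.01% of all genes. In hda6 24 (22.0%) were higher and 9 (8.26%) lower, against 9.08 and 3.05%. In hda9 16 (14.7%) were higher and 43 (39.4%) lower, against 43.7 and 9.08%. Relative to their comparison genes their medians were 0.08, 0.05 and -0.75 in sant-null, hda6 and hda9. Mitochondrial DNA carries near-identical sequence, so its reads and those of the insertion cannot be told apart, and mitochondrial DNA carries no histones.

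The insertion's genes did not move as 1 unit. AT2G07659 (chr2:3481036-3482584) had 31.4, 15.1 and 17.9 RPKM in sant-null, hda6 and hda9, against 9.23 RPKM in Col-0, a fold of 3.40 (2.93 to 3.94) in sant-null. The lncRNA gene AT2G05365 had 181, 125 and 96.5 RPKM in the mutants, against 68.3 RPKM in Col-0. AT2G07674, in contrast, had 108, 146 and 46.8 RPKM in the mutants, against 129 RPKM in Col-0, a fold of 0.362 (0.340 to 0.385) in hda9. The tRNA gene AT2G07754 had 660, 773 and 306 RPKM in the mutants, against 708 RPKM in Col-0. Among the 87 genes of the insertion with at least 50 Col-0 reads, folds ran from 0.517 to 3.40 in sant-null, from 0.555 to 2.55 in hda6 and from 0.334 to 1.98 in hda9. AT2G05205 and AT2G05215 are listed with the same start and end, so their values are 1 measurement listed 2 times.

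**Figure D3:**
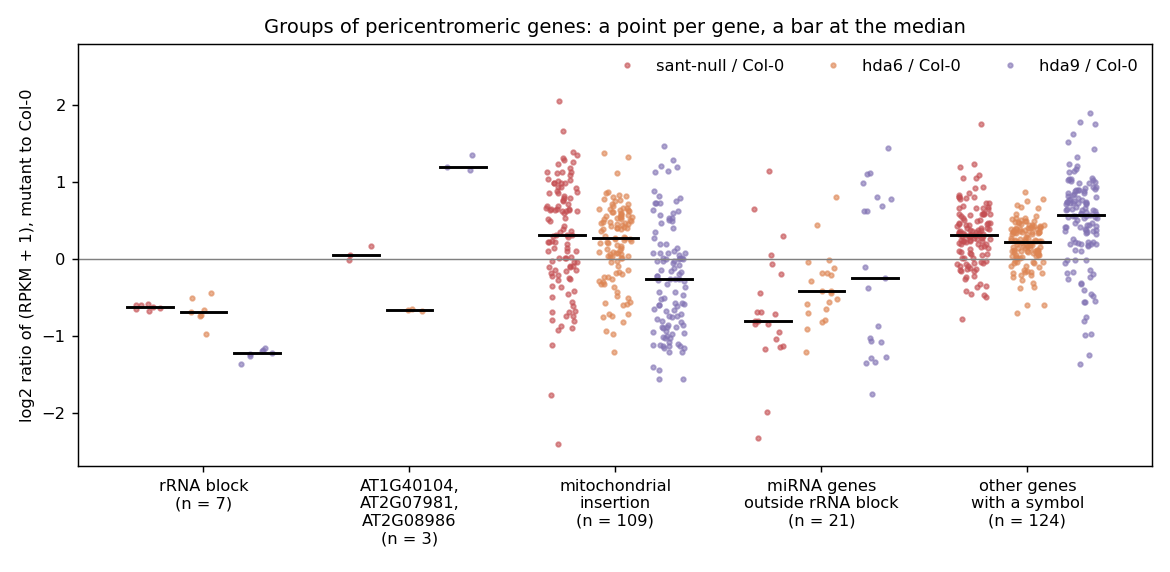
log2 ratio of (RPKM + 1) of each mutant to Col-0 for single genes of 5 groups, a point per gene and a black bar at the median. The rRNA block lies below 0 in all 3 mutants, the 3 named genes lie above 1 in hda9 only, and the mitochondrial insertion has its lowest median in hda9.

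The miRNA genes of the intervals had lower ratios to Col-0 than length-matched genes, as had the other types of RNA genes given below. A miRNA gene gives a short RNA that guides the silencing of matching transcripts. All 22 were tested, and their median log2 ratio minus that of the comparison genes was -0.90, -0.56 and -0.88 in sant-null, hda6 and hda9, with 20, 20 and 15 of 22 below. Their level in Col-0 was 0.35 above the comparison genes in the median, and 12 of 22 lay above. Their number is small and most held few reads, and 1 of them, MIR5642a, lies in the rRNA block. The 5 copies MIR854a to MIR854e of chromosome 5, a family that lies within copies of a retrotransposon, are near-identical and their reads may be exchanged between copies.

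MIR854b (chr5:11324370-11324590) had 261, 349 and 196 RPKM in sant-null, hda6 and hda9, against 503 RPKM in Col-0. Its folds were 0.518 (0.475 to 0.565), 0.694 (0.647 to 0.744) and 0.390 (0.366 to 0.417). Over the 5 copies the values ran from 17.3 to 261 RPKM in sant-null, 23.8 to 349 in hda6 and 14.9 to 196 in hda9, and from 39.4 to 503 RPKM in Col-0, and each copy was lower in each mutant than in Col-0. MIR855 of chromosome 2 had 10.1, 17.6 and 9.39 RPKM in the mutants, against 24.1 RPKM in Col-0, and MIR8175 had 20.3, 30.0 and 18.0 RPKM, against 45.5 RPKM. MIR396a, whose miRNA targets growth-regulating factors, was among the exceptions, with 3.31, 5.14 and 6.49 RPKM in the mutants and 2.49 RPKM in Col-0, where it held 7 reads.

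Genes with a symbol and genes without one differed in their ratios. The 149 tested members with a symbol had median differences to their comparison genes of -0.02, -0.04 and -0.01 in sant-null, hda6 and hda9. The 772 without a symbol had -0.16, -0.24 and -0.24. Outside the mitochondrial insertion the 668 without a symbol had -0.17, -0.29 and -0.16, and the 145 with one had -0.02, -0.03 and -0.01. Their Col-0 levels differed too, with medians relative to comparison genes of -0.18 with a symbol and 0.33 without. Outside the insertion these levels were -0.22 and 0.25. The comparison genes were matched on length but not on Col-0 level. Whether the ratios of both classes differ at equal Col-0 level was not tested. In their ratios, protein-coding members as a whole stood at -0.09, -0.15 and -0.17, and lncRNA members at -0.21, -0.23 and -0.20. Outside the mitochondrial insertion the 630 protein-coding members stood at -0.11, -0.19 and -0.09. The lncRNA values, and the tRNA values that follow, include genes of the insertion and were not split. The 20 tRNA members tested stood at -0.44, -0.16 and -1.20, and the 25 of the remaining types apart from miRNA at -0.24, -0.36 and -0.11.

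Known genes of the intervals were described by role, from lists of 40 loci of which 38 are members. At 1.5-fold, 7 were higher and 0 lower in sant-null, 3 higher and 0 lower in hda6, and 16 higher and 3 lower in hda9, and their median differences to the comparison genes were 0.00, 0.05 and -0.08. Against the backgrounds given above, 7, 3 and 16 of 38 are near the shares of all genes. Their values are plotted by role.

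Among plastid genes, RPS1 (AT5G30510), a chloroplast ribosomal protein that also takes part in the heat response, had 10.4, 7.87 and 10.3 RPKM in sant-null, hda6 and hda9, against 4.47 RPKM in Col-0. Its folds were 2.33 (1.93 to 2.81), 1.76 (1.46 to 2.12) and 2.30 (1.96 to 2.70), the highest of the 10 plastid genes in sant-null. MOD1, an enoyl reductase of fatty acid synthesis, had 6.59, 5.74 and 10.1 RPKM in the mutants, against 4.07 RPKM in Col-0. GAPB, a subunit of the chloroplast glyceraldehyde-3-phosphate dehydrogenase, had 11.4, 14.8 and 11.2 RPKM in the mutants, against 11.4 RPKM in Col-0, and PSBQ-2, a protein of photosystem II, had 8.72, 9.82 and 7.46 RPKM, against 9.0 RPKM. Of the 10 plastid genes 1, 1 and 3 were at least 1.5-fold higher in sant-null, hda6 and hda9 and 0 were lower. Of all genes tested, 23.7, 9.08 and 43.7% were higher and 6.01, 3.05 and 9.08% lower. With 10 genes these counts do not set the plastid genes apart.

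In primary metabolism NIA2, a nitrate reductase, held the highest level of the 7 listed genes. It had 67.2, 63.1 and 30.8 RPKM in sant-null, hda6 and hda9, against 74.4 RPKM in Col-0, a fold of 0.413 (0.396 to 0.431) in hda9 and of 0.903 (0.862 to 0.946) and 0.848 (0.813 to 0.886) in sant-null and hda6. ERD5, the proline dehydrogenase, had 19.4, 25.2 and 14.1 RPKM in the mutants, against 21.3 RPKM in Col-0. PAP26, an acid phosphatase, had 5.89, 4.28 and 7.88 RPKM in the mutants, against 3.0 RPKM in Col-0, and SHM7, a serine hydroxymethyltransferase, had 7.91, 5.78 and 8.93 RPKM, against 4.01 RPKM. NIA2 and ERD5, the 2 genes of the list with the highest Col-0 levels, were thus lower in hda9, and the other 5 were higher.

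The polyubiquitin genes had high levels and were lower in hda9 too. UBQ11 had 102, 105 and 37.5 RPKM in sant-null, hda6 and hda9, against 98.6 RPKM in Col-0, and UBQ10 had 82.8, 102 and 38.5 RPKM, against 76.6 RPKM. The folds in hda9 were 0.381 (0.359 to 0.403) and 0.503 (0.479 to 0.527). Both genes consist of near-identical repeats, so reads may be exchanged between them. RP1, a cytosolic ribosomal protein of the L3 family, had 8.71, 7.51 and 10.2 RPKM in the mutants, against 4.36 RPKM in Col-0, and BIP1, a chaperone of the endoplasmic reticulum, had 10.3, 11.7 and 11.4 RPKM, against 8.07 RPKM.

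Among regulators, BZIP60, named for its ratio in hda6 and not one of the 11 listed genes, is a transcription factor of the unfolded protein response. It had 12.9, 16.3 and 10.7 RPKM in sant-null, hda6 and hda9, against 9.05 RPKM in Col-0, a fold of 1.80 (1.55 to 2.09) in hda6. bZIP42 had 6.62, 7.04 and 9.31 RPKM in the mutants, against 3.39 RPKM in Col-0. ARP6, a subunit of the complex that deposits the histone variant H2A.Z and acts in temperature responses, had 9.70, 13.5 and 8.58 RPKM, against 12.4 RPKM in Col-0. The coactivator AN3, which acts in leaf growth, had 6.47, 7.69 and 6.27 RPKM, against 9.0 RPKM, and DAYSLEEPER, a protein derived from a transposase, had 14.4, 15.5 and 13.0 RPKM, against 10.6 RPKM. WRKY74 had 1.97, 1.56 and 5.57 RPKM, against 1.44 RPKM in Col-0. Of the 11 listed regulators, BZIP60 not among them, 2, 1 and 5 were at least 1.5-fold higher in sant-null, hda6 and hda9 and 0 were lower. The shares of all genes were 23.7, 9.08 and 43.7% higher and 6.01, 3.05 and 9.08% lower, so these counts do not set the regulators apart.

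OPR3, an enzyme of jasmonate synthesis, had 12.4, 16.0 and 9.78 RPKM in sant-null, hda6 and hda9, against 13.3 RPKM in Col-0. XTH4, an enzyme of the cell wall, had 7.95, 9.13 and 6.24 RPKM, against 6.30 RPKM in Col-0. QQS, an orphan gene that acts on starch content and is known for variable silencing, had 3.57, 1.55 and 5.87 RPKM, against 3.15 RPKM in Col-0. Its fold of 0.491 in hda6 rests on 23 reads in hda6 and 52 in Col-0 (interval 0.287 to 0.817).

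**Figure D4:**
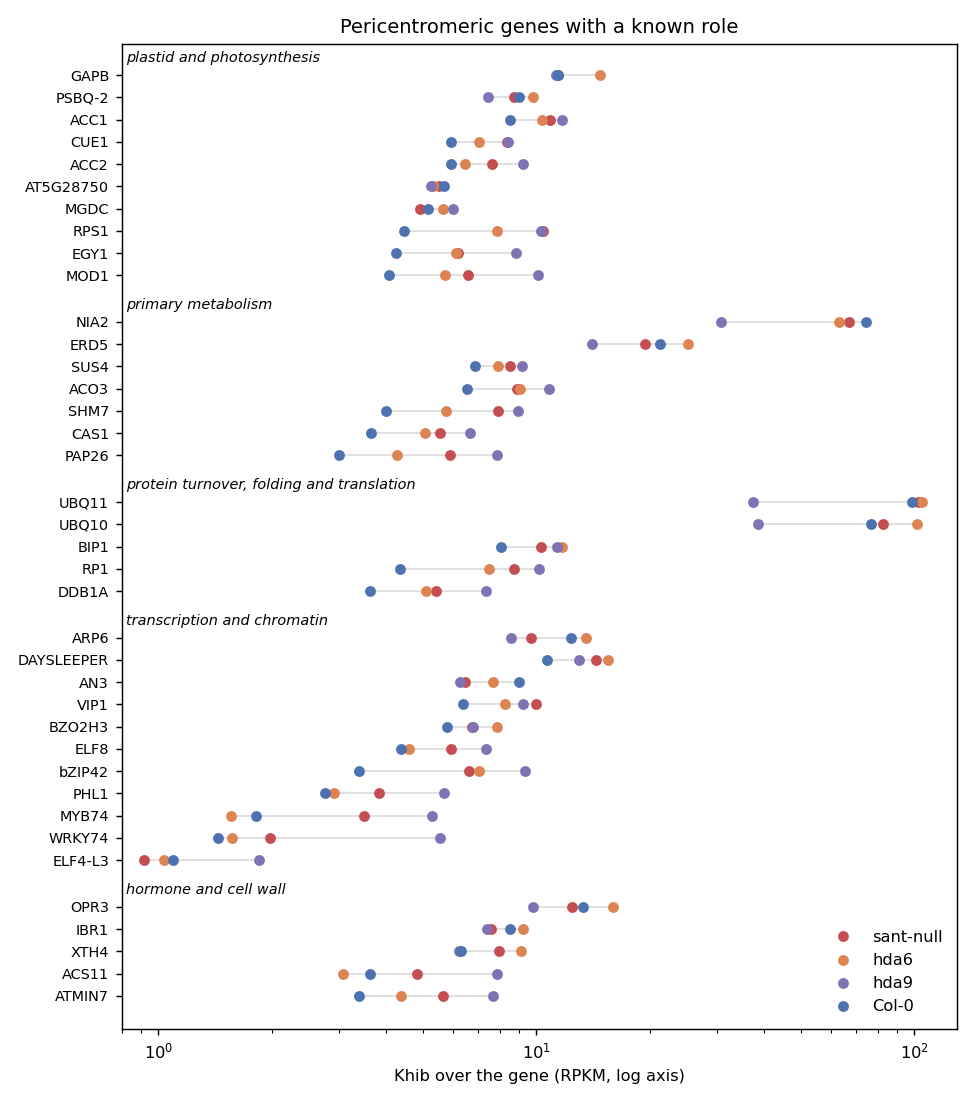
Khib (RPKM, log axis) over 38 pericentromeric genes with a known role, a row per gene and a point per genotype. NIA2, UBQ11 and UBQ10 have the highest levels and their hda9 points lie far left of the others, while most genes below 10 RPKM have their hda9 point at the right.

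Members with the largest single differences, of at least 500 bp, were mostly genes without a symbol. The highest ratios in hda9 included EDA35, whose mutant arrests in embryo sac development, with 4.74, 2.18 and 8.39 RPKM in sant-null, hda6 and hda9, against 1.51 RPKM in Col-0. EXT13, a cell wall extensin, had 14.7, 6.65 and 21.5 RPKM, against 5.65 RPKM in Col-0, folds of 2.60 (2.09 to 3.25), 1.18 (0.923 to 1.5) and 3.80 (3.17 to 4.58). AT4G05310 had 12.5, 4.78 and 13.7 RPKM, against 3.88 RPKM, and AT3G42630 had 6.79, 4.15 and 9.19 RPKM, against 2.25 RPKM. Their folds in sant-null were 3.22 (2.49 to 4.19) and 3.01 (2.24 to 4.08).

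In hda6 the highest ratio among these was that of AT2G07565, just outside the stretch taken as the mitochondrial insertion. It had 4.98, 6.87 and 7.02 RPKM in sant-null, hda6 and hda9, against 2.06 RPKM in Col-0. The lowest was that of AT2G11522, with 8.58, 2.55 and 10.8 RPKM, against 9.88 RPKM, a fold of 0.258 (0.163 to 0.396) in hda6. AT3G43150 (chr3:15143695-15144432) was among the 8 lowest in each mutant, with 49.6, 64.6 and 43.8 RPKM in sant-null, hda6 and hda9, against 106 RPKM in Col-0. Its folds were 0.468 (0.420 to 0.521), 0.610 (0.559 to 0.666) and 0.414 (0.383 to 0.447). AT3G32160 had 31.8, 42.0 and 23.3 RPKM, against 62.4 RPKM in Col-0, and AT4G06583 had 31, 38.1 and 22.7 RPKM, against 56.0 RPKM.

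Most of the marked chromatin in the intervals lay outside listed genes. The authors' deposited tables list islands, stretches of enriched reads, for each mutant with Col-0, and those of chromosomes 3 and 5 were used, since islands of the other chromosomes repeat positions of further chromosomes. Islands covered 25.2, 25.4 and 24.9% of the intervals in the tables of sant-null, hda6 and hda9, against 7.75, 8.30 and 6.87% of the rest of the 2 chromosomes. Inside there were 1162, 1181 and 1160 islands, 179, 182 and 178 per Mb, against 97.6, 110 and 93.0 per Mb outside. Of those inside, 92.9, 92.3 and 93.1% overlapped no listed gene, against 13.2, 12.2 and 13.9% of those outside. Listed genes were also sparser inside, with 55.7 and 47 per Mb on chromosomes 3 and 5, against 313 and 301 per Mb outside. The share of sequence outside listed genes was not computed, so these percentages do not show a preference of the mark for such sequence.

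The islands inside were lower relative to Col-0 than those outside in sant-null and hda6. In the authors' deposited tables the median fold was 0.675 inside and 0.790 outside in sant-null, 0.791 inside and 0.996 outside in hda6, and 0.575 inside and 0.574 outside in hda9. At the authors' FDR under 0.05, 1047 islands inside (90.1%) were lower in sant-null, where 74% of all islands of both chromosomes were. In sant-null 39 (3.36%) were higher, where 9.51% of all were. In hda6 963 (81.5%) were lower, where 37% of all were, and 41 (3.47%) were higher, where 22.4% of all were. In hda9 1130 (97.4%) were lower, where 96.6% of all were, and 14 (1.21%) were higher, where 1.68% of all were. The authors' FDR comes from reads of 1 value per genotype and holds no replicate spread. Island folds and gene ratios are not on the same scale. In hda9 43.7% of all genes tested were at least 1.5-fold higher, while 96.6% of these islands were lower. In sant-null 23.7% of genes were higher and 74% of islands lower.

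The islands were then split by whether they overlap a listed gene. Those without one had median folds of 0.677 inside and 0.694 outside in sant-null, 0.790 inside and 0.821 outside in hda6, and 0.578 inside in hda9. The log2 difference between inside and outside was then -0.04, -0.05 and 0.08 in sant-null, hda6 and hda9, against -0.23, -0.33 and 0.00 over all islands. Islands that overlap a gene, 82 inside in sant-null and 91 in hda6, had median folds of 0.658 inside and 0.806 outside in sant-null and 0.815 inside and 1.02 outside in hda6. Their log2 difference was -0.29 and -0.32, about as large as that over all islands, so the difference was small in the one kind of island and not in the other.

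**Figure D5:**
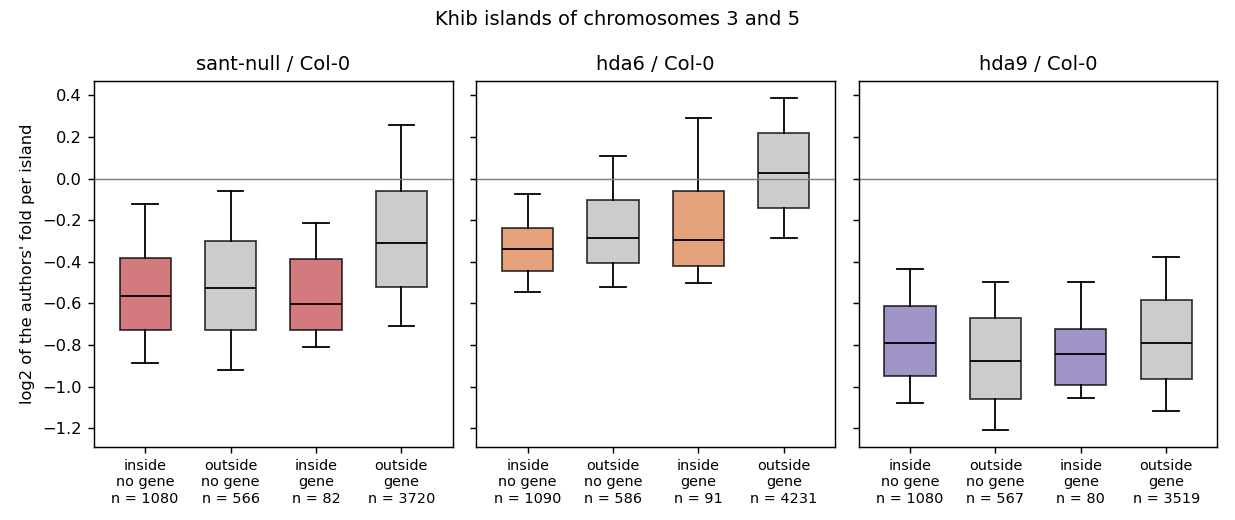
log2 of the authors' fold of islands of chromosomes 3 and 5, inside (coloured) and outside (grey) the intervals, split by overlap with a listed gene. Boxes show the quartiles with the median and whiskers the 10th and 90th percentiles. In sant-null and hda6 the islands outside that overlap a gene lie highest, and the other 3 groups lie close together.

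Single islands are given here on the scale of the island folds. The island with the highest fold inside in hda9, chr5:13434401-13435000, lies in EXT13, with a fold of 2.77 on 718 reads in hda9 and 125 in Col-0 in the authors' deposited table. The island chr3:14748001-14748400 was among the 3 lowest in both sant-null and hda6, with folds of 0.395 and 0.492 and 250 reads in Col-0. The widest islands of chromosome 5 inside, chr5:11338401-11354200 and chr5:12766801-12778400, had folds of 0.624 and 0.628 in sant-null, 0.755 and 0.765 in hda6 and 0.522 and 0.543 in hda9, close to the medians of all islands inside. The widest of chromosome 3 inside, chr3:14188401-14209000, chr3:14210001-14225200 and chr3:13588801-13600400, were not all close to them. In that order their folds were 1.01, 1.04 and 1.05 in sant-null. In hda6 they were 0.903, 0.998 and 0.786, and in hda9 0.537, 0.761 and 1.01.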

How the data were processed

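Per the labels' protocols, seedlings were fixed with formaldehyde and chromatin was precipitated with an anti-Khib antibody. The submitters' processing notes name TAIR10, CASAVA, Bowtie2 2.2.5, SICER 1.0.3 and bedtools. The sources used here do not give how replicates were combined or inputs used. The authors deposited RPKM values per gene in 4 tables, per the file headers, 1 value per genotype. Whole reads were recovered from them within 0.01 reads at the depths given. The authors deposited read counts per island, the same as RPM, a fold, and a p-value and FDR per direction, per the file headers, in 3 tables. The fold is close to the ratio of the RPM values but not exactly equal to it.

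The genes tested had 1 RPKM or more in 2 or more genotypes, 922 of 980 members and 31805 genes in all. Log2 ratios used a pseudocount of 1 RPKM, so folds of low genes are understated, while single-gene folds are plain ratios of RPKM with conditional exact (Clopper-Pearson) 95% intervals from reads. For each member the median of its comparison genes was subtracted. With 1 value per genotype the test across replicates was not possible. An island belonged to an interval by its midpoint. The steps were tested on simulated data. Python 3.11.15, pandas 2.3.3 and scipy 1.17.1 were used, and names came from a table of TAIR10.1.

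The members, role lists and rules were chosen with earlier results of these data known. Named genes were the 12 highest in Col-0 and, per mutant, the 8 highest and 8 lowest ratios among members of at least 500 bp with 5 RPKM and 50 reads in either genotype, with the role lists, the insertion, the highest of each RNA type, QQS and the 3 most extreme islands in either direction. Single miRNA genes other than the highest, the 3 genes of 1 profile and the widest islands were named after their values were seen. Promoter sequences were not used here.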

Additional observations from a re-analysis of the deposited data

How the results depend on the processing

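The median log2 ratio of members minus comparison genes was below 0 under each of the 22 settings in the 3 mutants, from -0.16 to -0.07 in sant-null, -0.23 to -0.11 in hda6 and -0.32 to -0.02 in hda9. It moved to -0.0743, -0.11 and -0.11 in sant-null, hda6 and hda9 with a pseudocount of 5 RPKM, to -0.14 in hda6 with protein-coding genes of at least 500 bp alone, and to -0.14 in hda6 and -0.11 in hda9 after quantile normalization. In hda9 it was -0.32 with the intervals narrowed by 0.5 Mb at both ends, -0.11 without chromosome 2 and -0.0213 with comparison genes matched on the Col-0 level. The median difference in level became 0.31, 0.25, 0.25 and 0.59 in sant-null, hda6, hda9 and Col-0 in the narrowed intervals, and -0.0418 in sant-null and 0.0901 in Col-0 without chromosome 2. In sant-null, hda6 and hda9 its main values are near 0, and it was below 0 under 2, 5 and 1 of 18 settings. The median log2 fold of islands inside minus outside was -0.14, -0.18 and -0.10 over all 5 chromosomes and -0.0361, -0.0544 and 0.0838 for islands without a gene, in sant-null, hda6 and hda9. It was -0.29 in sant-null and -0.0539 in hda9 for islands with a gene, and -0.27 in hda6 and -0.0420 in hda9 against islands of similar width and density. The causes of these shifts were not tested. Counts at 1.5-fold moved most. Across settings the share of members lower was 8.68 to 30.9% in sant-null, 2.82 to 26.5% in hda6 and 14.7 to 39.0% in hda9, and the share higher was 5.42 to 25.1%, 0.664 to 9.44% and 8.96 to 38.9%. With the authors' FDR under 0.001, 84.7% of the islands inside were lower in sant-null and 67.1% in hda6. The limit of 50 reads, genes without overlap, and the splits of islands were added after seeing the data. No paired analysis was possible because the tables hold 1 value per genotype, and for the same reason no replicate could be left out. The median member held 111.5 reads in sant-null, so differences of single short genes are the least certain there.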
